A study of Saccharomyces cerevisiae with 30 samples.

Results

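Long intergenic regions were stretches of at least 1500 bp between neighbouring features that do not overlap, in the coordinates of the authors' deposited expression table, more than 20 kb from the outermost feature of the chromosome. There were 208 of them among 5916 intergenic regions at that distance and 6194 in all. They ran for 1501 to 22549 bp with a median of 2010 bp, made up 5.35% of the genome spanned by features, and held 64330 of 401017 calling card insertions (16%). By the strands of the flanking genes, 51 were divergent (both genes start at the region), 64 tandem (1 gene starts there and the other ends), 7 convergent (both genes end there) and 86 undirected. Undirected means that a flank had no single stated strand, called here a flank without a stated strand. This includes flanks of merged features with different strands. Of the 86, 84 had a tRNA gene as a flank. The other 5708 regions were under 1500 bp and are called shorter regions here.

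Most budding yeast genes are controlled from the stretch just before their start, so a divergent region carries promoters at both ends, a tandem one at one end and a convergent one at none. Genes that integrate many signals, such as those of differentiation and of cell surface proteins, are known for longer upstream regions. Calling cards record binding as insertions: Sir4, a silencing protein to which the Ty5 integrase binds, is joined to a transcription factor, and new Ty5 copies then land near the DNA that the factor occupies. Ty5 by itself prefers silent chromatin.

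The calling card libraries were 1 each for Flo8, Mss11, Mfg1, Sok2, Ste12, Tec1, Mit1, Nrg1, Sfl1, Phd1, Mga1, Rim101, Rlm1, Rtg1, Skn7, Smp1, Fkh1, Dig1, Gln3, Hms1, Msn1, Hot1, Hms2, Yap6, Msn2, Msn4, Gcn4 and Rgm1, 28 in all. Each was made from 1 pool of colonies of Σ1278b, a strain able to form filaments, grown in synthetic medium low in ammonium and induced with galactose, with the DNA cut in 3 digests. The 2 polyA RNA libraries came from nitrogen-starved medium and from rich medium, 1 each. A library without a factor was not analysed here, so each factor was compared with the 27 others. None had a replicate, and the labels do not say whether the RNA came from separate cultures. Libraries held 2836 (Rtg1) to 41619 insertions (Phd1) with a median of 12128.5, and reached between 88 (Rtg1) and 198 (Phd1) of the 208 regions. In the RNA libraries, 16 of 16 genes under nitrogen catabolite repression with enough RPKM were at least 2-fold higher in the library labelled as starved.

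The first comparison asked how densely the long regions were hit. Density is given as insertions per kb per 1000 insertions of the library. Pooled over libraries it was 0.252 in long regions, against 0.227 in shorter ones. Long divergent regions stood at 0.709, against 0.232 in shorter divergent ones, long tandem regions at 0.347, against 0.279, and long convergent regions at 0.200, against 0.0956. Only in the undirected class was the pooled density lower in the long regions, at 0.0546, against 0.180 in the shorter ones. These pooled values weigh large libraries more, so the comparisons below were made within each library.

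Per library, long divergent regions had a density of 0.242 (Fkh1) to 2.15 (Sok2) with a median of 0.403, against 0.126 (Mit1) to 0.335 (Gcn4) with a median of 0.260 in shorter divergent regions. Long divergent regions were denser in 27 of 28 libraries, all but that of Fkh1. The mean log2 ratio was 1.11 ± 1.12 (SD, n = 28 libraries), or 2.16-fold, with a two-sided sign-flip permutation p of 1e-05, the smallest that 100000 resamples give (Benjamini-Hochberg adjusted p = 1.6e-05 over 8 density tests). The libraries share the regions and many positions, so this p measures only the spread between libraries of different factors. The difference depended on the length limit. With 2000 bp in place of 1500 bp, regions such as UBC4-TEC1 (1999 bp) and RPI1-RHO3 (1879 bp) were counted among the shorter ones. The mean log2 ratio was then -0.014 and 8 of 28 libraries were higher (adjusted p = 0.931 in the same permutation test).

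Long tandem regions had a density of 0.127 (Hms2) to 1.01 (Mit1) with a median of 0.193, against 0.155 (Mit1) to 0.416 (Skn7) with a median of 0.262 in shorter tandem regions. The mean log2 ratio of -0.16 ± 1.07 (SD, n = 28) was within the spread between libraries, with 8 of 28 higher (adjusted permutation p = 0.513). Convergent regions likewise gave 0.16 ± 1.45 (adjusted permutation p = 0.569), with 10 of 28 libraries higher and Mit1 farthest out at 4.58. Over all classes the mean log2 ratio was -0.20 ± 0.86 with 10 of 28 higher (adjusted permutation p = 0.289). These 3 comparisons have no fixed direction: when each region's own density was averaged, so that a very long stretch counted no more than a short one, they stood at 0.55 for tandem, 1.38 for convergent and 0.76 for all regions (adjusted permutation p 0.0201, 1.6e-05 and 0.000194).

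**Figure D1:**
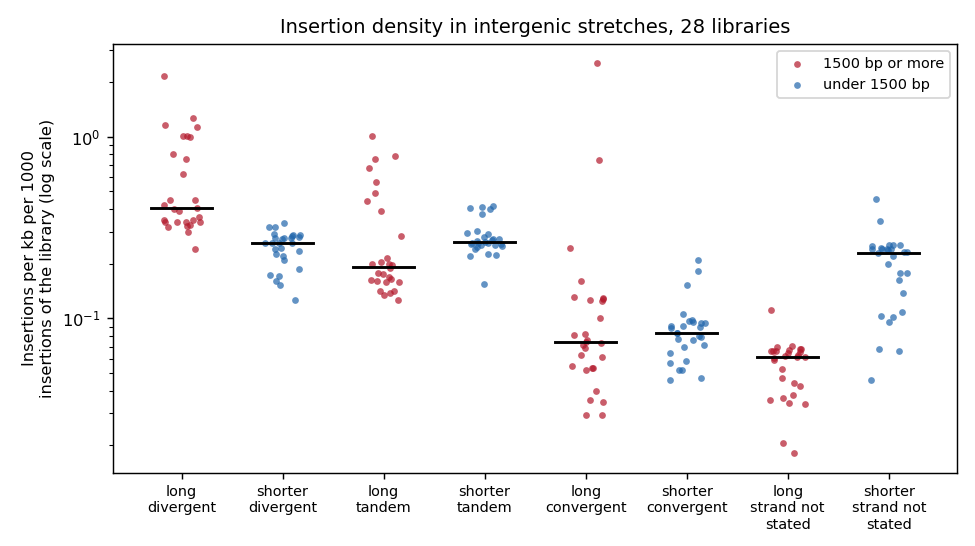
Insertions per kb per 1000 insertions of the library (log axis) in long regions (red) and in shorter ones (blue), by the orientation of the flanking genes; each point is 1 of 28 libraries and the bar is their median. The medians are 0.403 and 0.260 for divergent, 0.193 and 0.262 for tandem, 0.0739 and 0.0828 for convergent and 0.0616 and 0.230 for undirected regions, long first, and the topmost convergent point is Mit1 at 2.53.

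Among the long regions themselves, density per kb of a whole class followed the number of gene starts that face the region. Long divergent regions were denser than long tandem ones in 26 of 28 libraries, by a mean log2 ratio of 1.07 ± 0.70. They exceeded long convergent ones by 2.48 ± 1.16, again in 26 of 28, and tandem exceeded convergent regions by 1.41 ± 0.95 in 26 of 28 (SD, n = 28; permutation p 1e-05, the smallest possible, and adjusted p 1.6e-05 for each). Mit1 went the other way in all 3 comparisons, at -0.43, -1.75 and -1.32. Only 7 convergent regions enter, and 1674 of their 2122 insertions lay in the region between MGA1 and RIE1, described below. They also include the nearly empty stretches between YDR261W-A and YDR261C-C and between YJR026W and RBH2. The typical convergent region was not sparser than the typical tandem one. The median over regions of the median density was 0.0879 for convergent, 0.0815 for tandem and 0.282 for divergent long regions.

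Within the 168 regions that have a facing start, insertions concentrated towards it. The 238960 bp within 1200 bp of the nearest facing start held 47404 insertions, and the 219538 bp beyond held 13256. Density beyond 1200 bp was lower than within it in 28 of 28 libraries, by a mean log2 ratio of -1.92 ± 0.64 (SD, n = 28; permutation p 1e-05, the smallest possible, adjusted 1.6e-05). Restricted to regions of at most 4000 bp, a limit chosen after seeing the data, the ratio was -0.92, with 5 of 28 libraries higher beyond 1200 bp. Where both flanks had a stated strand, the median library had 0.212 insertions per kb per 1000 in the first 200 bp from the start, 0.395 from 201 to 400 bp, 0.532 from 401 to 600 bp and 0.453 from 601 to 800 bp. The values then declined to 0.247 at 1001 to 1200 bp, 0.197 at 1401 to 1600 bp and 0.141 at 1801 to 2000 bp. So the insertions were densest some 400 to 600 bp before the start and sparser next to it.

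**Figure D2:**
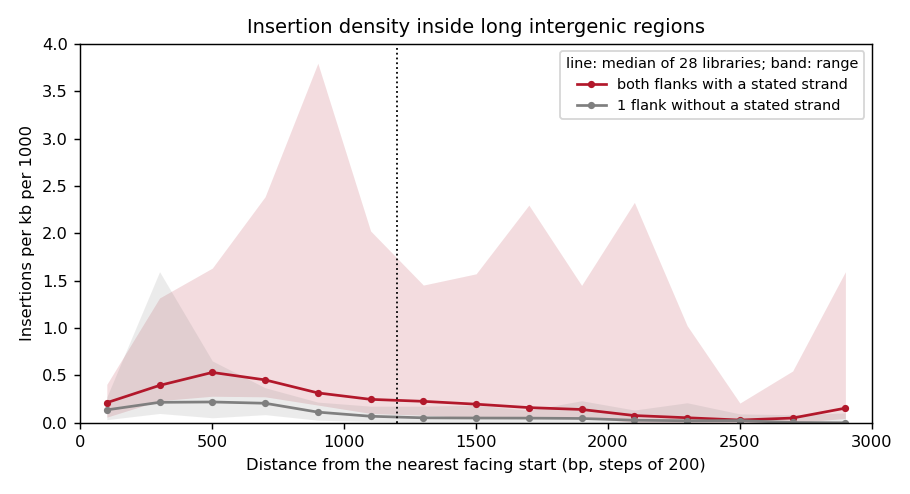
Insertions per kb per 1000 insertions of the library by distance from the nearest facing start, in steps of 200 bp, for long regions whose flanks both have a stated strand (red) and for those with 1 flank without (grey); lines are the median of 28 libraries, bands their range and the dotted line marks 1200 bp. The red median reaches 0.532 at 401 to 600 bp, against 0.220 for the grey one; the peaks of the red band far from the start come from single regions and libraries.

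Density also varied with length. The 103 regions of 1500 to 2000 bp held 37752 insertions at 0.538 per kb per 1000, the 52 over 2000 and up to 3000 bp 19832 at 0.397, and the 18 over 3000 and up to 4500 bp 5182 at 0.206. The 35 regions over 4500 bp covered 274.6 kb and held 1564 insertions, at 0.0142. Across the 208 regions, length and median density had a Spearman correlation of -0.41, given as a description since regions share libraries. Of the 35 regions over 4500 bp, 27 had a tRNA gene as a flank. The 8 without one were sparser still, with 77 insertions in 85.4 kb at 0.00225, against 0.585 in the 116 regions of up to 4500 bp without a tRNA flank. The sources used here do not say how reads from repeated DNA were aligned, and the part of this in the low counts was not tested.

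The 84 regions with a tRNA flank had 0.0585 insertions per kb per 1000, against 0.434 in the 124 without. At up to 4500 bp the 57 with a tRNA flank had 0.120, against 0.585 in the 116 without. tRNA genes are transcribed by RNA polymerase III from promoters inside the gene. In the median library the first 100 bp next to a tRNA gene had a density of 0.141, the next 100 bp 0.108, and the stretch from 201 to 300 bp 0.0478. Beyond 1000 bp from the tRNA gene it was 0.0593.

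The longest regions were nearly empty. The stretch between NTS2-3a and NTS2-3b, both parts of the non-transcribed spacer of the ribosomal DNA, ran for 22549 bp with 2 insertions, that between REX3, an RNA exonuclease gene, and SNR6, the U6 snRNA gene, for 16698 bp with 7, and that between tC(GCA)B and BBR010W for 11607 bp with 16. No insertion was listed between YJR026W and RBH2 (4371 bp) or between VPH2 and BKL047W (5942 bp). A count of 0 allows up to 3 insertions, which is 0.00171 and 0.00126 per kb per 1000 over all libraries and covers counting error only. Single insertions were listed between YDR261W-A and YDR261C-C (11480 bp) and between BLR055W and tD(GUC)L2 (4449 bp). In all, 26 regions had under 20 insertions.

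At the other end, 10 regions held 45.4% of the insertions in long regions, and the fullest 13 held over 50%. Just inside the length limit stood the regions before BIM1 (1501 bp, 40 insertions) and between FOX2 and tL(CAA)K (1502 bp, 45), just outside those between PRE10 and PIP2 (1494 bp, 31) and between YOL155W-A and HPF1 (1484 bp, 1548).

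The second comparison asked which factors placed more of their insertions in a long region than the other libraries did. The share of a library in long regions ran from 7.76% (Hms2, 95% Wilson interval 7.37 to 8.18) to 36.5% (Sok2, 35.7 to 37.3), with a median of 9.96%. These intervals cover counting error only, as insertions of pooled colonies are not independent. Positions also recurred unevenly between libraries. Sok2 had 14955 insertions at 11755 positions, Mit1 14259 at 10350 and Mfg1 40727 at 29473, against 41619 at 41278 in Phd1 and 27254 at 27151 in Mga1. The part of this in the shares was not tested. Over 15% were Sok2, Mit1 (32.4%), Mfg1 (27.6%), Flo8 (25.1%), Nrg1 and Mss11 (20.3% each), Ste12 (19.1%), Sfl1 (18.5%), Tec1 (17.6%) and Dig1 (16.9%). The other 18 libraries lay below, up to 12.8% (Rlm1); they include further factors linked to filamentous growth, such as Phd1 (9.58%), Mga1 (9.02%), Msn1 (10.1%) and Hms1 (9.82%).

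A library was said to call a region when Fisher's exact test, one-sided, of its insertions against the 27 others pooled gave an adjusted p of at most 0.05 and an odds ratio of at least 2. It tests libraries, not conditions. Libraries called 130 pairs of library and region in long regions, 2.23% of 5824 pairs, against 0.555% over all intergenic regions, and 83 of the 208 long regions (39.9%) were called by at least 1 library, against 12.3% of all regions. A long region held more insertions than a shorter one, with a median of 78, against 13.5, which makes a call easier to reach. Per 100 kb, long regions had 20.4 called pairs, against 34.6 in shorter ones. Called regions made up 28 of 51 divergent, 30 of 64 tandem, 3 of 7 convergent and 22 of 86 undirected long regions, and 30 of the 35 regions over 4500 bp had none.

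Mfg1 called 19 long regions, Sok2 and Nrg1 14 each, Flo8 and Mit1 10 each, and Hot1 and Hms2 0. Of the 130 pairs, 100 passed when each position was counted once, when single-read insertions were left out, when positions with at least 10 times more reads in another library were left out and when the highest other library was left out of the pool. In 20 pairs over 80% of the positions were also listed in another library.

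The region with most insertions lay before a factor gene. That between UBC4, an E2 enzyme gene of ubiquitin conjugation, and TEC1, the gene of the filamentation factor Tec1 (chr2:379533-381531), held 7861 insertions at 0.361 to 52.7 per kb per 1000 with a median of 1.48, the highest median of any long region. Dig1 had 2307 insertions there, Ste12 1995 and Tec1 1723; the next library, Mfg1, had 384. Ste12 is the DNA-binding factor of the mating and filamentation kinase pathway, Tec1 its partner and Dig1 its inhibitor. Ste12 placed 105 of every 1000 insertions there (Wilson interval 101 to 110), against 15.4 in the other libraries, an odds ratio of 7.56, with 6.54 for Dig1 and 6.10 for Tec1. Each of the 3 libraries is part of the pool that the others were compared with. In all 3 the densest 100 bp lay at the same place. Its median insertion was 345 bp before TEC1 in Ste12, 339 bp in Dig1 and 350 bp in Tec1. A second, lower group of insertions lay on the UBC4 side. Most positions in the region were also listed in another library: 822 of 942 in Ste12, 857 of 1004 in Dig1 and 729 of 792 in Tec1. The part of shared positions in this likeness was not tested.

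The region between RPI1, a gene of a regulator linked to Ras and the cell wall, and RHO3, a GTPase gene of polarised growth (chr9:121184-123062), held 3615 insertions, at 0.230 to 37.9 per kb per 1000 with a median of 1.02. Sok2 had 1064 (odds ratio 11.5) and Mit1 574 (odds ratio 5.29), followed by Mfg1 with 363 and Phd1 with 306. The densest 100 bp of the 2 calling libraries were not the same: that of Mit1 lay 542 bp before RPI1 and that of Sok2 904 bp before RHO3.

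**Figure D3:**
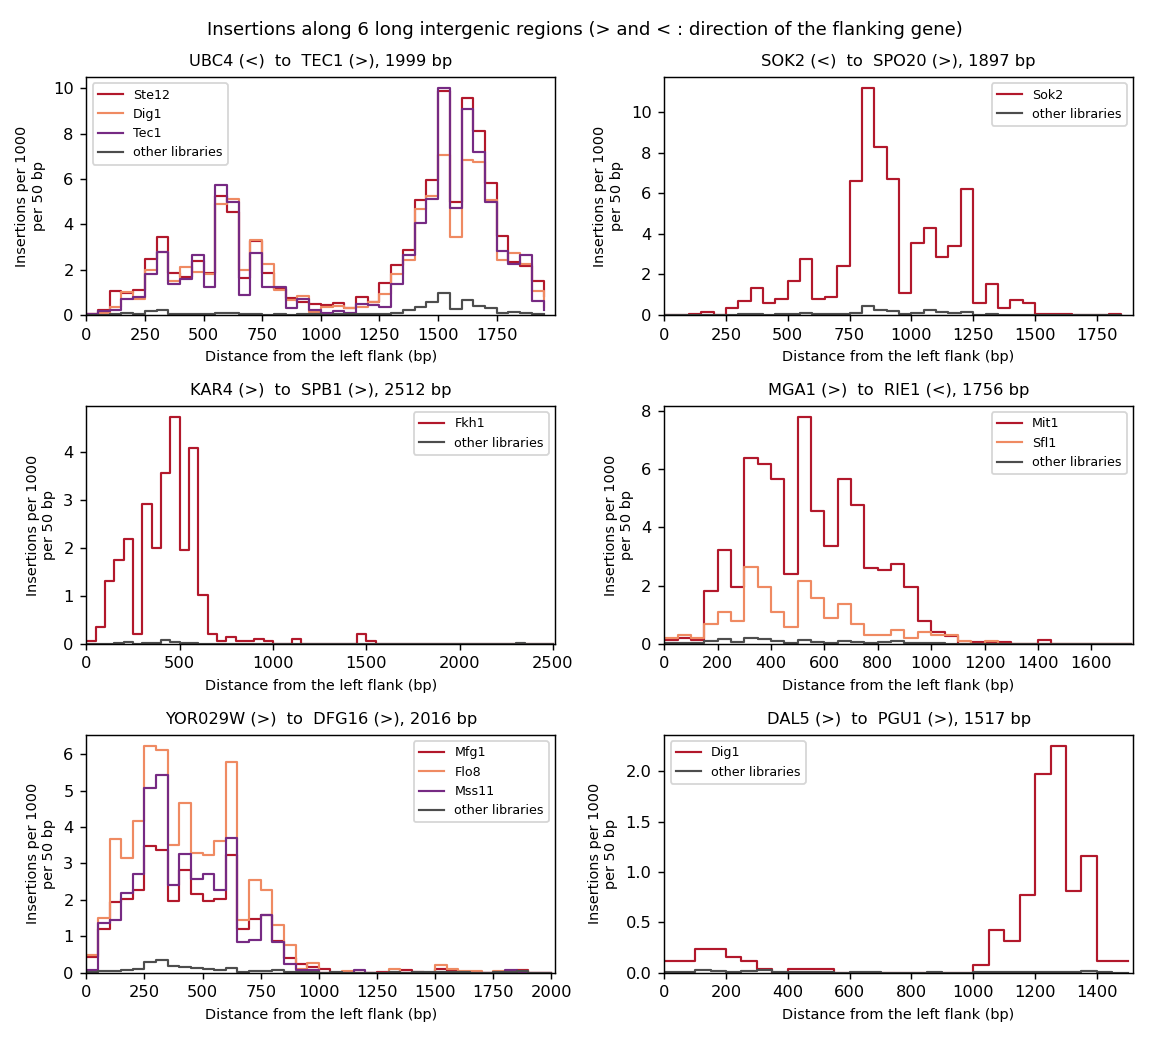
Insertions per 1000 of the library in bins of 50 bp along 6 long regions, by distance from the left flank, for the calling libraries (colours) and the other libraries pooled (grey); > and < give the direction of each flanking gene. Ste12, Dig1 and Tec1 share 2 groups of insertions between UBC4 and TEC1, Fkh1 lies mostly within the first 700 bp after the end of KAR4, and Dig1 mostly near the start of PGU1.

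Sok2, an APSES factor, had 2 further leading regions at genes of regulators. Between its own gene SOK2 and SPO20, a sporulation SNARE gene (chr13:310127-312023), it had 1057 insertions, 70.7 per 1000 (66.7 to 74.9), against 2.23 in the other libraries, where the next was Mfg1 with 247. The odds ratio was 34.0 and the densest 100 bp lay 840 bp before SOK2. Between IME1, the gene of the master regulator of meiosis, and RPL43B (chr10:607108-609760) it had 652, against 93 in Mfg1, the next library, with an odds ratio of 32.8 and the densest stretch 1083 bp before IME1. Sok2 also led before TOS8, a homeodomain factor gene, with 661 insertions (odds ratio 9.71), though Mfg1 had more by number, 785 (odds ratio 4.13). Other calls of Sok2 lay between SPO20 and PEX9 (35 insertions, odds ratio 12.4) and between GAC1 and SYC1 (45, odds ratio 8.69).

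Nrg1, a repressor of glucose-repressed and filamentation genes, likewise led at its own gene. Between NRG1 and HEM13, a heme synthesis gene (chr4:523708-526868), it had 362 of 1058 insertions, 29.1 per 1000 (26.2 to 32.1), against 1.79 elsewhere, an odds ratio of 16.7, and the densest 100 bp lay 419 bp before NRG1. Its second highest odds ratio was before TIR1, a wall mannoprotein gene, where it had 51 of 160 insertions (odds ratio 14.6).

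Flo8, Mss11 and Mfg1, known to act together on FLO11, shared their leading regions. Between YOR029W and DFG16, a gene of pH sensing in the Rim101 pathway (chr15:383572-385587), the second fullest long region with 3719 insertions, Flo8 had 1089 insertions (58.9 per 1000, 55.6 to 62.4), Mfg1 1438 (35.3, 33.6 to 37.1) and Mss11 528 (39.9, 36.7 to 43.3), with odds ratios of 9.04, 5.7 and 5.01. The other 25 libraries reached at most 199 (Sok2), and 1 had none. The densest 100 bp lay 801 to 807 bp before CIN5, a bZIP factor gene whose start lies left of YOR029W, and at least 1674 bp from DFG16. Most positions in the region were also listed in another library: 477 of 531 in Flo8, 503 of 633 in Mfg1 and 309 of 322 in Mss11. The part of this in the likeness of the 3 libraries was not tested. All 10 regions called by Flo8 were among the 19 of Mfg1 (100% of those of Flo8, 52.6% of those of Mfg1), as were all 6 of Mss11, and 5 were called by both Flo8 and Mss11. The highest odds ratio of Mfg1 was between BRP1 and YGL006W-A (chr7:488021-489800), with 1179 of 2168 insertions (odds ratio 10.8).

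The 5 regions called by 4 libraries were those between YKL063C and MSN4, YNL179C and RPS3, CCW22 and YCF1, CMR3 and YPR014C, and CWP2 and CWP1. Flo8, Mfg1 and Sok2 were among the callers of the first 4. Before MSN4, a stress factor gene (chr11:326452-328147), Mfg1 had 725 insertions, Flo8 285, Sok2 161 and Mss11 112, against a median of 9.5 over the 28 libraries. The calls of Sok2 and Mss11 there were lost without positions richer in another library, and that of Mss11 also without single-read insertions. The same 4 factors called the region before RPS3, a ribosomal protein gene (chr14:296233-297808), with 607, 220, 163 and 130 insertions. Nrg1 was the fourth caller between CCW22 and YCF1 with 52 insertions, a call lost when each position was counted once, and Mit1 led before CMR3, a zinc finger protein gene, with 218 of 663 (odds ratio 13.5). Of the other long regions 10 were called by 3 libraries, 12 by 2, 56 by 1 and 125 by none.

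**Figure D4:**
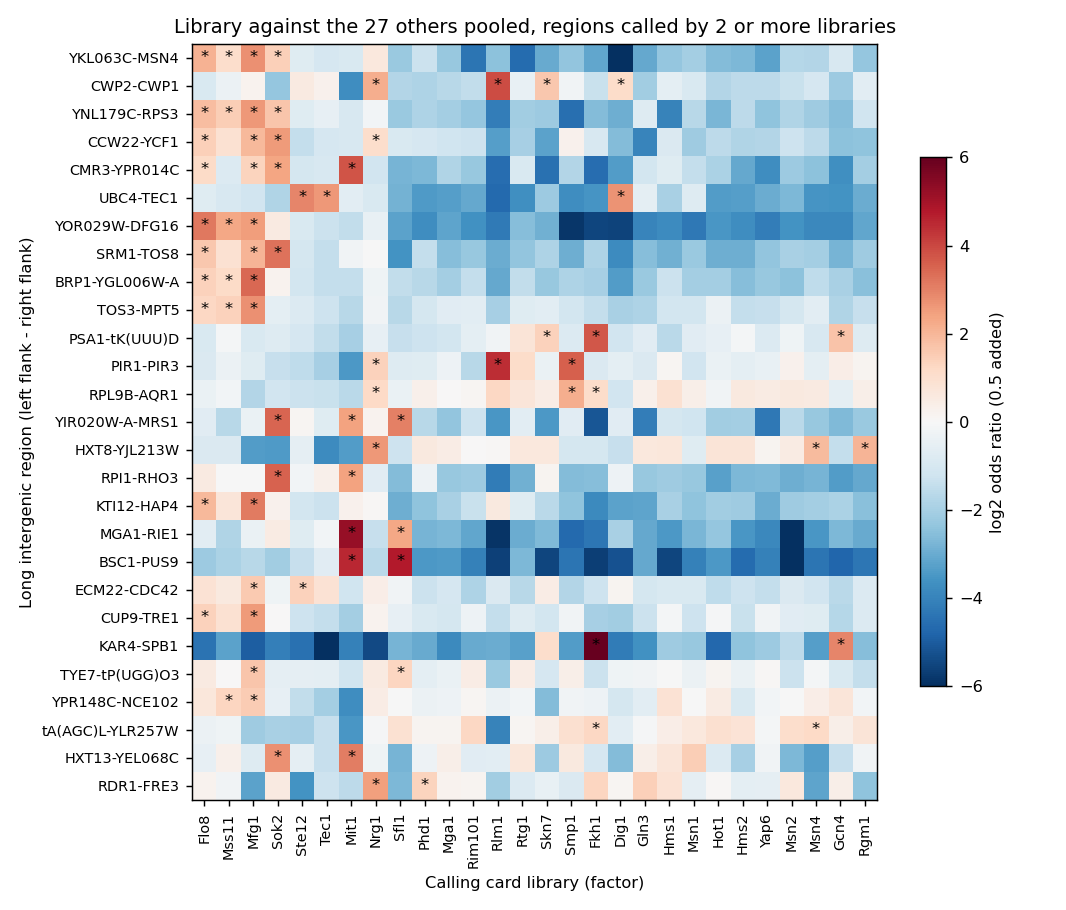
Log2 odds ratio (0.5 added) of each library against the 27 others pooled, for the 27 long regions called by 2 or more libraries; red is higher and blue lower, and stars mark calls. Flo8, Mfg1 and Sok2 share the regions called by 4 libraries, except that between CWP2 and CWP1. Ste12, Tec1 and Dig1 share the region between UBC4 and TEC1, and Mit1 and Sfl1 those between MGA1 and RIE1 and between BSC1 and PUS9.

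Some regions next to wall protein genes had other callers. Mfg1, though, called that before YGP1, also a wall protein gene (odds ratio 5.62). It also called those between HPF1 and ZPS1 (208 insertions, odds ratio 9.68) and between CCW22 and YCF1. Rlm1, which acts at the end of the kinase pathway of wall stress, called 5 long regions and led at 3 next to wall protein genes. Between CWP2 and CWP1, genes of wall mannoproteins (chr11:264986-266587), all libraries had insertions, at 0.175 to 29.5 per kb per 1000 with a median of 1.29, the highest of the tandem class. Rlm1 had 328 there, 47.3 per 1000 (42.6 to 52.6), against 3.26 elsewhere (odds ratio 15.2), and Nrg1 (202, odds ratio 4.53), Skn7 (78, odds ratio 3.08) and Dig1 (206, odds ratio 2.14) also called it. Between PIR1 and PIR3 (chr11:142469-144051), genes of wall proteins with internal repeats, Rlm1 had 118 insertions (odds ratio 21.3), Smp1 36 (odds ratio 12) and Nrg1 33 (odds ratio 2.54). Rlm1 and Smp1 are both MADS-box factors, and their densest 100 bp lay 412 and 415 bp before PIR1. That of Nrg1 lay 483 bp before it. Positions also listed in another library were 33 of 95 in Rlm1, 22 of 32 in Smp1 and 29 of 32 in Nrg1. Their part in this likeness was not tested. Between PIR5 and HSP150, a further gene of that wall family, Rlm1 had 44 of 148 (odds ratio 24.2). Its other calls were not next to wall protein genes. They lay between HXT3 and SVF1 (25 insertions, odds ratio 14.7) and between BBR010W and tE(UUC)B (4, odds ratio 22.7).

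Mit1 and the repressor Sfl1 shared called regions that lie downstream of genes or far from starts. Between MGA1, a gene of a factor with a heat shock factor domain, and RIE1, an RNA-binding protein gene (chr7:976782-978537), no gene starts at either end. Mit1 had 940 insertions there, 65.9 per 1000 (62.0 to 70.1), against 1.90 elsewhere (odds ratio 37.1), Sfl1 had 190 (odds ratio 4.98), Mfg1 130, and 3 libraries had none. The densest stretch lay 293 bp after the end of MGA1. Between BSC1 and PUS9, a tRNA pseudouridine synthase gene, Mit1 had 623 insertions (odds ratio 23.3) and Sfl1 551 (odds ratio 26.8). The densest 100 bp lay over 1200 bp from the start of BSC1 in both. Many positions were also listed in another library. Next to MGA1 these were 148 of 178 in Sfl1 and 263 of 482 in Mit1. Next to BSC1 they were 239 of 456 in Sfl1 and 240 of 386 in Mit1. The part of this in the likeness of the 2 libraries was not tested.

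The highest odds ratio of all was that of Mit1 between SWH1, an oxysterol-binding protein gene, and BAR004W (chr1:179559-182814). Mit1 had 591 of the 697 insertions, 41.4 per 1000 (38.3 to 44.8), against 0.274 elsewhere (0.227 to 0.331), an odds ratio of 158. The next library, Tec1, had 23, the median library 2, and 10 libraries had none. Fkh1, a forkhead factor of the cell cycle, stood apart in the same way between KAR4, a gene of a karyogamy factor, and SPB1, an rRNA methyltransferase gene (chr3:31670-34181), with 556 of 673 insertions (odds ratio 90.6). Its densest 100 bp lay 396 bp after the end of KAR4 and 2060 bp from the start of SPB1. Gcn4 called this region too, with 46 insertions (odds ratio 7.63), but all 39 of its positions were listed in other libraries, with a median of 1 read, and none was left once positions with at least 10 times more reads in another library were removed. Fkh1 also led at PSA1, a gene of GDP-mannose synthesis, with 431 of 1043 insertions (odds ratio 13.3), and between YCR095W-A and HMRA2, at the silent mating cassette, with 58 of 220 (odds ratio 6.66).

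Single libraries led at 2 more regions, the first with few insertions of any other factor. Between DAL5, an allantoate permease gene, and PGU1, a secreted pectinase gene (chr10:722795-724311), Dig1 had 239 of 324 insertions, 9.27 per 1000 (8.17 to 10.5), against 0.227 elsewhere (odds ratio 41.3). The densest 100 bp lay 269 bp before PGU1; Tec1 had 20 insertions in the region and the median library 2. Between YMR082C and ADH3, a mitochondrial alcohol dehydrogenase gene (chr13:430938-433572), Sfl1 had 380 of 803 (odds ratio 35.7), against 60 in Phd1, the next library. All other libraries together had 423. The densest 100 bp of Sfl1 lay 375 bp before YMR082C.

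The other libraries had weaker leading regions. Skn7 led between CWP2 and CWP1, Gcn4 between KAR4 and SPB1 and Smp1 between PIR1 and PIR3, as given above. The remaining ones rested on 10 to 17 insertions: Yap6 before RPS2 (10, odds ratio 6.74), Hms1 before BMH2 (10, 6.87), Msn1 between tV(AAC)G3 and VRG4 (10, 5.27), Mga1 before BIM1 (11, 5.20), Gln3 between YOL153C and FRE7 (10, 4.25), Rgm1 (11, 4.0) and Msn4 (16, 3.60) before YJL213W, Msn2 before ATG19 (11, 3.95) and Phd1 between tQ(CUG)M and SCS7 (17, 3.26), each insertions and then odds ratio. None of these 9 passed a Bonferroni adjustment over all pairs of region and library. Rim101 and Rtg1 called 1 region each, with 8 insertions in both cases.

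Regions with a high median over the 28 libraries were called by 0 to 4 libraries. Among divergent regions those with the highest medians after TEC1 and RPI1 lay between STP4 and SIT4, a phosphatase gene (median 0.706 per kb per 1000, highest 1.58 in Sfl1), between KTI12 and HAP4, the gene of the activator of respiration (0.665, highest 12.6 in Mfg1), and between SRP40 and PTR2, a peptide transporter gene (0.642, highest 1.91 in Rtg1). No library called the region before PTR2, whereas Mfg1 had 1201 of 2467 insertions before HAP4 (odds ratio 8.62). Among tandem regions, BRP1 to YGL006W-A had a median of 0.892, ECM22 to CDC42, a sterol regulator gene and a polarity GTPase gene, 0.804, SRM1 to TOS8 0.631 and MPF1 to YNL143C 0.583. The last had no call and a range of 0.150 to 1.2. Convergent regions were low apart from that after MGA1 (median 0.333): YCR095W-A to HMRA2 had 0.117, GAT1 to PAU5 0.0936, ZNF1 to IMA5 0.0879 and AAC3 to YBR085C-A 0.0712.

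Pairs of regions were compared by the Pearson correlation of their log2 odds ratios over the 28 libraries, as a description. The top pair consisted of the 2 regions with no insertion and was passed over, a choice made after its values were seen. Next came YNL179C to RPS3 with YOR029W to DFG16 (r = 0.90), TOS3 to MPT5 with BRP1 to YGL006W-A (r = 0.90) and BSC1 to PUS9 with MGA1 to RIE1 (r = 0.90). The first 2 pairs share Flo8, Mss11 and Mfg1 as callers, and the last shares Mit1 and Sfl1.

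The stretch upstream of FLO11, the flocculin gene of filamentous growth, is not a member as a whole. The deposited table places YIR020C and YIR020W-A inside it and so splits it. The piece next to FLO11 (585 bp) held 49 insertions and that between YIR020C and YIR020W-A (374 bp) held 607. The farthest piece, between YIR020W-A and MRS1 (2054 bp), is a member, and another member lies after the end of FLO11. The region after the end of FLO11 (chr9:368481-372338, 3858 bp) held 1165 insertions, 610 of them of Mit1 (odds ratio 31.1), with Mfg1 next at 138. The region between YIR020W-A and MRS1 (chr9:377475-379528) held 323 and was called by Sok2 (97, odds ratio 11.1), Sfl1 (56, odds ratio 8.08) and Mit1 (52, odds ratio 5.22), all with their densest 100 bp beginning within 32 bp of YIR020W-A.

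Of 5808 protein-coding genes, 205 (3.53%) face a long region with their start. Among the 28 factors assayed, 4 do (MSN4, NRG1, SOK2 and TEC1), and each of their regions was called, as were all 6 of the other transcription factor genes on a list of 46 (CUP9, HAP4, IME1, RPI1, SUT1 and TOS8). MGA1 flanks a long region only with its end. Of 38 wall and adhesin genes, 11 face 10 long regions, 6 of them called: those of CWP1, of PIR1 and PIR3, of HSP150, of TIR1, of YGP1 (Mfg1) and of FLO5 (Mit1, 89 of 227 insertions, odds ratio 17.6). No library called the regions of DAN1, DAN4, FIT1 and TIR2. FLO5 and the DAN and PIR genes have close relatives, so reads may have been split between copies. Of 36 nutrient transporter genes, 6 face long regions and those of GAP1, HXT3 and HXT7 were called. CLB2 was the sole member among 18 cyclin and cell cycle genes, none of the daughter-cell separation genes was one, and among carbon metabolism genes CDC19, ENO1, ICL1 and TDH2 were. The lists were drawn up with results of these data known, and 39.9% of all long regions were called.

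In the authors' deposited table, 211 of the 219 features facing a long region had a p-value per factor. Of their 5908 pairs of factor and gene, 248 (4.2%) were at or under 0.001, against 0.879% over all genes, and 75 of the genes (35.5%) had at least 1 such factor, against 11.3%. The sources used here do not state the test or the window behind these p-values. TEC1 had 13 factors at that level, RPI1 and RHO3 11 each, MSN4, SOK2, SPO20, YKL063C and TOS8 9 each and HAP4, CWP1 and IME1 8 each. The authors' deposited table and the region calls shared 87 pairs of factor and region, which is 72.5% of the region calls next to a facing gene and 45.8% of the regions' pairs in the deposited table.

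The third comparison set the 2 RNA libraries side by side for the 219 features that face a long region. With 1 library per medium there is no test, and folds are on the log2(RPKM + 1) scale. In 195 of them the RPKM reached 5 in either medium. Of these, 26 (13.3%) were at least 2-fold higher in starved than in rich medium, against 10.8% of all features, and 10 (5.13%) were at least 2-fold lower, against 4.05%. Their median log2 ratio was 0.03, against 0.01 for all features. These shares are near the background. The level was lower than usual: the 205 protein-coding genes had a median of 39.0 RPKM in starved and 32.2 in rich medium, against 50.2 and 44.9 over all protein-coding genes. Genes of called regions had 44.4 and 34.4, and those of regions with no call 35.6 and 30.2.

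The genes that stood highest in starved relative to rich medium were GAP1, the general amino acid permease, at 859.9 RPKM, against 11.3 in rich medium (log2 ratio 6.13), PTR2 at 282, against 21.5 (3.65), YLR257W at 1196, against 179.7 (2.73), PGU1 at 70.2, against 9.89 (2.71), and FOX2, a gene of peroxisomal fatty acid oxidation, at 40.3, against 6.02 (2.56). Among the 20 genes that face a region called by 3 or more libraries, 3 were at least 2-fold higher in starved than in rich medium, 2 were at least 2-fold lower and 15 were within 2-fold, a count added after seeing the data. The 3 higher ones were MSN4, TEC1 and TOS8, and the 2 lower ones AQR1, a drug transporter gene (log2 ratio -1.07), and YJL213W. For regions with 1 or 2 calling libraries, 13 of 72 genes were higher and 5 lower. For regions with no call, 10 of 103 were higher and 3 lower. Over all features 10.8% were higher and 4.05% lower. MSN4 stood at 74.5, against 13.6 RPKM (2.37), NRG1 at 77.5, against 15.1 (2.29), HAP4 at 215, against 56.6 (1.91), TEC1 at 235, against 104 (1.17), and TOS8 at 63.1, against 29.9 (1.05); the regions of NRG1 and HAP4 had 1 and 2 calling libraries. SOK2 with 86.8, against 69.8, and RPI1 with 10.6, against 14.2, were within 2-fold. IME1 was low in both, at 4.61, against 9.18 RPKM.

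Lowest relative to rich medium were the hexose transporter genes HXT3 at 29.7, against 520.5 RPKM (-4.09), and HXT2 at 34.7, against 279 (-2.97), followed by YRO2 at 4.48, against 34.4 (-2.69), TIR1 at 4.12, against 18.3 (-1.91), and YJL213W at 9.43, against 35.2 (-1.80). Among the wall protein genes with called regions, PIR1 had 515, against 780 RPKM, and CWP1 18.5, against 25.9, both within 2-fold. HXT7 was listed at 0.071 RPKM in starved and 0 in rich medium; it has a near-identical copy in HXT6, whose part in this value was not tested. The highest RPKM in starved medium belonged to RPS26B (6783), RPS2 (2668), CDC19 (1875), RPS3 (1814) and CCW22 (1639), and these 5 were also the highest in rich medium, at 10957, 4867, 6383, 2826 and 1747. RPS2, CDC19 and CCW22 carry coordinates merged with an overlapping feature, which makes their RPKM uncertain.

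**Figure D5:**
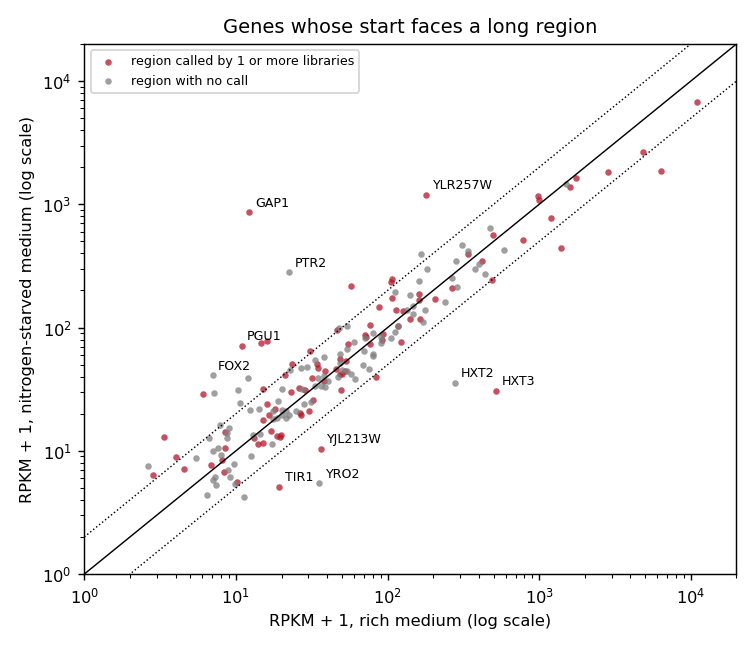
RPKM + 1 in nitrogen-starved (vertical) and in rich medium (horizontal, both log axes) of the 195 features that face a long region and pass the RPKM minimum, red where at least 1 library called the region and grey where none did; the solid line marks equality and the dotted lines 2-fold. GAP1 (859.9, against 11.3) and HXT3 (29.7, against 520.5) lie farthest from equality.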

How the data were processed

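Insertions of Ty5 were mapped in 28 calling card libraries and polyA RNA in 2, all of Σ1278b. The sources used here state no aligner, genome build or read filter. The authors' insertion lists give chromosome, position and, per line, a count taken as the reads behind the insertion; lines were counted as listed. The authors' deposited p-value table has 1 p-value per gene and factor, and their expression table gives RPKM per the file headers, with no read totals, so RNA depth is unknown. No column of values was left unassigned.

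Regions were built from the deposited coordinates, written from 1. Strand came from the W or C of the systematic name; 325 of 6932 features had none, 1307 overlapping features carry merged coordinates, and 5929 matched the RefSeq R64 gene table, used for names only. Density ratios had 0.5 insertions added to each sum and were tested by sign-flip permutation over the 28 libraries; calls used Fisher's exact test with Benjamini-Hochberg adjustment over 165648 pairs of region and library. Both procedures were tested on simulated independent draws. These lack the repeated and shared positions of the real lists, so they cannot show how the procedures behave with them. Adjusted p-values of called pairs not printed are below 0.05, several too small to be computed apart from 0. Promoter motifs were not searched, since no sequence of these regions was used here.

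Named regions were, per orientation, the 5 with the highest median density. Named too were the 5 called by most libraries, the 3 longest and the 5 with fewest insertions. For each library, the highest odds ratio among regions with at least 10 of its insertions was added. IME1 and the second and further regions of Mfg1, Sok2, Nrg1, Rlm1, Mit1, Sfl1 and Fkh1 were chosen after their values were seen. So were genes of expression beyond the 5 highest and 5 lowest ratios and the 5 highest RPKM. The members and lists were chosen with earlier results of these data known. Python 3.11.15, NumPy 2.4.6, pandas 2.3.3, SciPy 1.17.1 and matplotlib 3.10.9 were used. The alternatives tried were counting each position once, leaving out single reads or positions richer elsewhere, other length, end and distance limits, other ways of combining regions, other references and adjustments, and other RPKM filters and pseudocounts.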

Additional observations from a re-analysis of the deposited data

How the results depend on the processing

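All comparisons between orientations and of far against near stretches kept direction and call under every alternative run for them. The ratio of long divergent to shorter divergent regions did so too, except at a limit of 2000 bp, where the mean log2 ratio was -0.014. The other ratios of long to shorter regions did not, and the causes were not tested. With a limit of 1000 bp they were 0.45 for all regions, 0.71 for tandem and 0.86 for convergent ones, and with 2000 bp -1.18, -0.86 and -2.01. Without each library's fullest region they were -0.40, -0.45 and -1.20, and with the mean over regions 0.76, 0.55 and 1.38. Using only regions with stated strands gave 0.58 for all. The convergent ratio was also -0.14 without positions richer elsewhere, -0.14 at 30 kb from the ends and -0.0018 without Mit1. Called pairs numbered 269 at 1000 bp and 62 at 2000 bp, called regions 173 and 42, and 53 with Bonferroni adjustment, against 130 and 83; pairs of factor and gene with a deposited p-value that met 0.001 numbered 513 and 84, against 248, since the limit sets how many regions enter. With a pseudocount of 5, 16 features were 2-fold higher in starved medium, against 26. Gcn4 between KAR4 and SPB1 had an odds ratio of 0 without positions richer elsewhere. The subset with stated strands, that of at most 4000 bp, that of regions with an insertion and the fits without Mit1 were chosen after seeing the data. Odds ratios of the named leading pairs kept their call in 162 recomputations and lost it in 23. No paired analysis was possible because each group has 1 library. Small libraries such as Rtg1, with 233 insertions in long regions, can show only large differences.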
